A study of Mus musculus with 6 samples.

Results

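The genes described here are 33 genes of blood coagulation, of its inhibition and of fibrinolysis, read in the liver of progeroid and wild-type mice. They were listed by gene symbol, with the serpins left out. Of the 33, 31 had a probe set annotated to that gene alone, among 19938 genes measured in this way, and 29 passed the filter on low values and were tested. Klkb1 shared its only probe set with another gene and Cpb2 had no listed probe set, so neither was measured here. Plat and Plau were measured but lay below the filter.

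Liver RNA came from 3 mice homozygous for the G609G knock-in allele of Lmna (mice 1, 3 and 5) and from 3 wild-type Lmna+/+ mice (mice 2, 4 and 6). All were female, on the C57BL/6 background, 3 months old, and fasted for 6 h before liver was taken. Lmna encodes the nuclear lamins A and C, and the allele, a model of Hutchinson-Gilford progeria, alters splicing without changing the encoded amino acid. It is carried in every cell, so a liver value holds the effect of the allele in hepatocytes together with that of the state of the whole animal. Each mouse gave 1 array with a linear intensity per probe set, and an intensity can be compared between mice but not between genes.

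Clotting starts when tissue factor meets factor VII, runs through a cascade of proteases and their cofactors to thrombin, and ends in a fibrin mesh that factor XIII cross-links. Protein C, protein S, protein Z and tissue factor pathway inhibitor hold it back, and plasmin dissolves the clot. The liver makes most of these proteins, whereas von Willebrand factor, factor VIII, thrombomodulin and the endothelial protein C receptor come largely from endothelium. Factors II, VII, IX and X, proteins C, S and Z and Gas6 need vitamin K, which Ggcx uses to carboxylate them and Vkorc1 regenerates.

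The 6 arrays had median intensities of 97 to 104 and no 2 of them held identical values. Across all 26634 tested probe sets, limma called 6888 (25.9%) at a Benjamini-Hochberg adjusted p below 0.05, of which 57.7% were higher in knock-in liver, or 47.7% after median centring of the arrays. Omitting knock-in mouse 1 left 4236 calls, omitting wild-type mouse 2 left 4478, and omitting wild-type mouse 6 left 4564. Without knock-in mouse 3 there were more calls than with all 6 mice, at 7725. The Lmna probe set did not pass (limma adjusted p = 0.40) and does not separate the spliced forms, so it does not check the genotype. The liver label was checked against 10 measured hepatocyte markers, whose summed intensity was 138719 to 147506 in knock-in mice and 138362 to 142000 in wild-type mice, with Alb at 17659 ± 1105 in knock-in mice and 17221 ± 643 in wild-type mice (SD, n = 3 each). Of these 10 markers Tat and Tdo2 rose (log2 changes of 0.60 ± 0.12 and 0.39 ± 0.06), Apoa2 fell (-0.32 ± 0.09) and 7 did not pass.

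Protein S rose and the vitamin K-dependent carboxylase Ggcx fell, together with factor XI, tissue factor and protein C, while prothrombin, fibrinogen and plasminogen did not pass the test. Of the 29 tested genes, 5 rose and 10 fell in knock-in liver, so 51.7% were called, against 25.9% of all tested probe sets and 26.8% of those with 1 gene symbol. The share that rose was 17.2%, against 14.9% and 13.5% of these, and the share that fell was 34.5%, against 10.9% and 13.3%. With arrays centred on their medians 3 genes rose (10.3%, against 11.7% of all tested probe sets). The share of all probe sets called depends on the filter. At the 50th percentile it was 36.8%, with 5 coagulation genes higher and 10 lower, and F13a1 and Procr not tested. The median log2 change of the 29 genes was -0.05, against 0.03 for all tested probe sets, and the median size of a change without its sign was 0.32, against 0.18. The genotypes did not overlap at 16 of the 29 genes (55.2%), against 41.1% of all tested probe sets. Omitting knock-in mouse 1 left 5 falls, as did omitting wild-type mouse 2, and omitting wild-type mouse 6 left 6. Without knock-in mouse 3 there were 11 falls. Rises numbered 3 when knock-in mouse 1 or 3 was omitted, and 2 when any 1 wild-type mouse was.

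**Figure D1:**
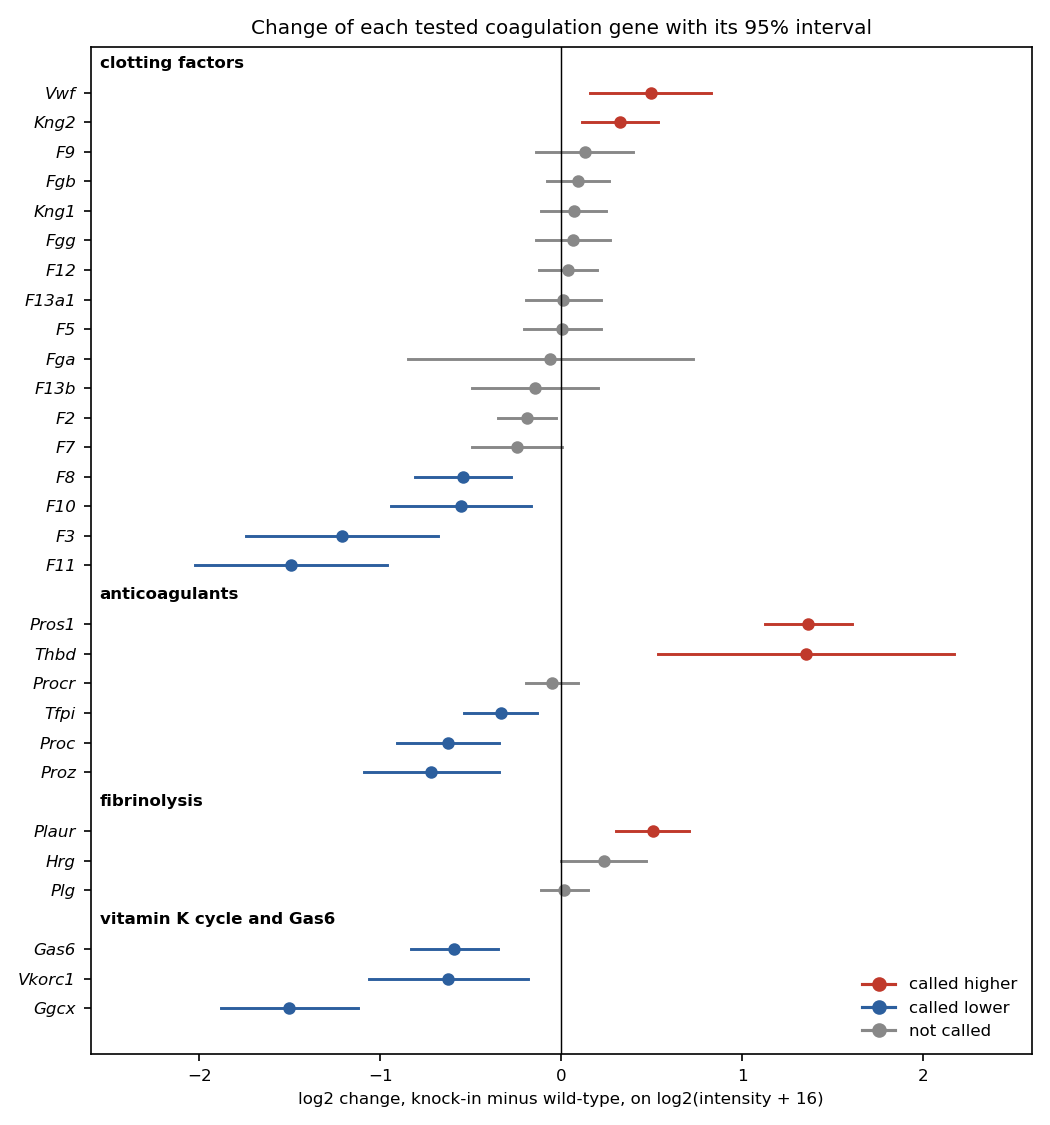
Log2 change (knock-in minus wild-type, on log2(intensity + 16)) of the 29 tested genes by class, with points for the estimate and lines for the 95% interval from limma. Ggcx, F11 and F3 lie lowest, at -1.50, -1.49 and -1.21, Pros1 and Thbd lie highest, at 1.37 and 1.35, and most clotting factors lie near 0.

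The promoters of 5 genes are shown because these genes span the pattern. Pros1 had the largest rise, Ggcx, F11 and F3 had the largest falls, and Fgb is a fibrinogen gene that did not pass. Each stretch is taken from RefSeq (GRCm38.p6), 250 bases before to 50 after the gene start, printed from 5′ to 3′ on the strand of the gene. Pros1 is at chr16:62854057-62854356 (plus strand), Ggcx at chr6:72414058-72414357 (plus strand), F11 at chr8:45261982-45262281 (minus strand), F3 at chr3:121723287-121723586 (plus strand) and Fgb at chr3:83049814-83050113 (minus strand). Capitals mark matches, on either strand, to 9 motifs spelled out after the sequences.
Pros1: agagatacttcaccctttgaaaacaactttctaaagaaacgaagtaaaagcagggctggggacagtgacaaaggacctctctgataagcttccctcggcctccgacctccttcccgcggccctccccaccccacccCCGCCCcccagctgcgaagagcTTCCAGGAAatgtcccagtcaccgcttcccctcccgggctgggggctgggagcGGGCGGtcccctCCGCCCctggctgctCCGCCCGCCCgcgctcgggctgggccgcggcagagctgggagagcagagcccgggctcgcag
Ggcx: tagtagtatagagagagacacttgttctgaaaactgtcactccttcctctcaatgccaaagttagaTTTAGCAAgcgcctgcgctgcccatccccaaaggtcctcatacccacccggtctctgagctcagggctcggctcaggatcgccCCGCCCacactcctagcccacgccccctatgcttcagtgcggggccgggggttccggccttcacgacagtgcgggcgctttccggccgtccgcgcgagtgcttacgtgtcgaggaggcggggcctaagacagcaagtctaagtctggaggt
F11: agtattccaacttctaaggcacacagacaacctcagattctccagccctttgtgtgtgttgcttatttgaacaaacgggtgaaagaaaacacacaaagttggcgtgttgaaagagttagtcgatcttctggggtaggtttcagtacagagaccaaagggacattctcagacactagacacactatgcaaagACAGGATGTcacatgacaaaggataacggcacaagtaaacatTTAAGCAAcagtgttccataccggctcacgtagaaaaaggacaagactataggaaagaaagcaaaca
F3: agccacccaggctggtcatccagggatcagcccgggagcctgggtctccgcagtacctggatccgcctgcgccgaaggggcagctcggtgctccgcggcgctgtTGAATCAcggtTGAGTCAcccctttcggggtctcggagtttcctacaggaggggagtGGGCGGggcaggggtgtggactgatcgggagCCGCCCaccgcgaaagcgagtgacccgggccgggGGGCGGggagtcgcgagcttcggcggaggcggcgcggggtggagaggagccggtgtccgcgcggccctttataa
Fgb: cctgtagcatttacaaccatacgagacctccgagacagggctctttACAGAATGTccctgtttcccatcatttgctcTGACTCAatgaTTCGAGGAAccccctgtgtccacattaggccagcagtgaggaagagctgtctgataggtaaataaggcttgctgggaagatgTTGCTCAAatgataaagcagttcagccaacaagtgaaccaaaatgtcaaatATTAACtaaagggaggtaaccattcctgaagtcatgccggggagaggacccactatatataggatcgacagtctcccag

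The motifs searched on both strands were CAAAGTNCA for HNF4, GTTAAT for the core of the HNF1 site, TTGCNNAA for C/EBP, TTCNNNGAA for STAT, ACANNNTGT for the core of the site of the glucocorticoid receptor, CACGTG for the E-box of the clock, TTATGNAA for the D-box, TGANTCA for AP-1 and GGGCGG for the GC box. Matches of different motifs were allowed to overlap, and N stands for any base. Of the 31 measured genes, 24 had a promoter entry that was searched. Tfpi and F13a1 had 2 entries each and were counted once if either matched, whereas the mouse shares below are of single entries. Chromosome 18, where Proc lies, was left out of the search of these genes but not of the mouse promoter entries set beside them. C/EBP letters were in 9 of the 24 (37.5%), against 10.8% of 32851 mouse promoter entries, and AP-1 letters in 6 (25%), against 7.81%. STAT letters were in 4 (16.7%, against 8.30%), HNF1 letters in 5 (20.8%, against 7.10%), HNF4 letters in F9 alone (4.17%, against 1.41%), E-box letters in Tfpi alone (4.17%, against 7.15%) and GC box letters in 8 (33.3%, against 35.7%). Glucocorticoid receptor core letters were in 4 (16.7%, against 6.85%), while a longer form of that site, with a fixed G and C outside the core, was in 0 (against 0.475%). No match was found to the D-box letters (3.38% of all entries). C/EBP letters were in 2 of 3 genes that rose, 2 of 9 that fell and 5 of the others with an entry. These shares were not tested. The Pros1 window held STAT letters and 5 GC boxes, the F3 window 2 AP-1 matches, the F11 window C/EBP and glucocorticoid receptor letters, and the Fgb window AP-1, STAT, C/EBP, HNF1 and glucocorticoid receptor letters. A match describes the letters in the window and is not evidence of binding.

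**Figure D2:**
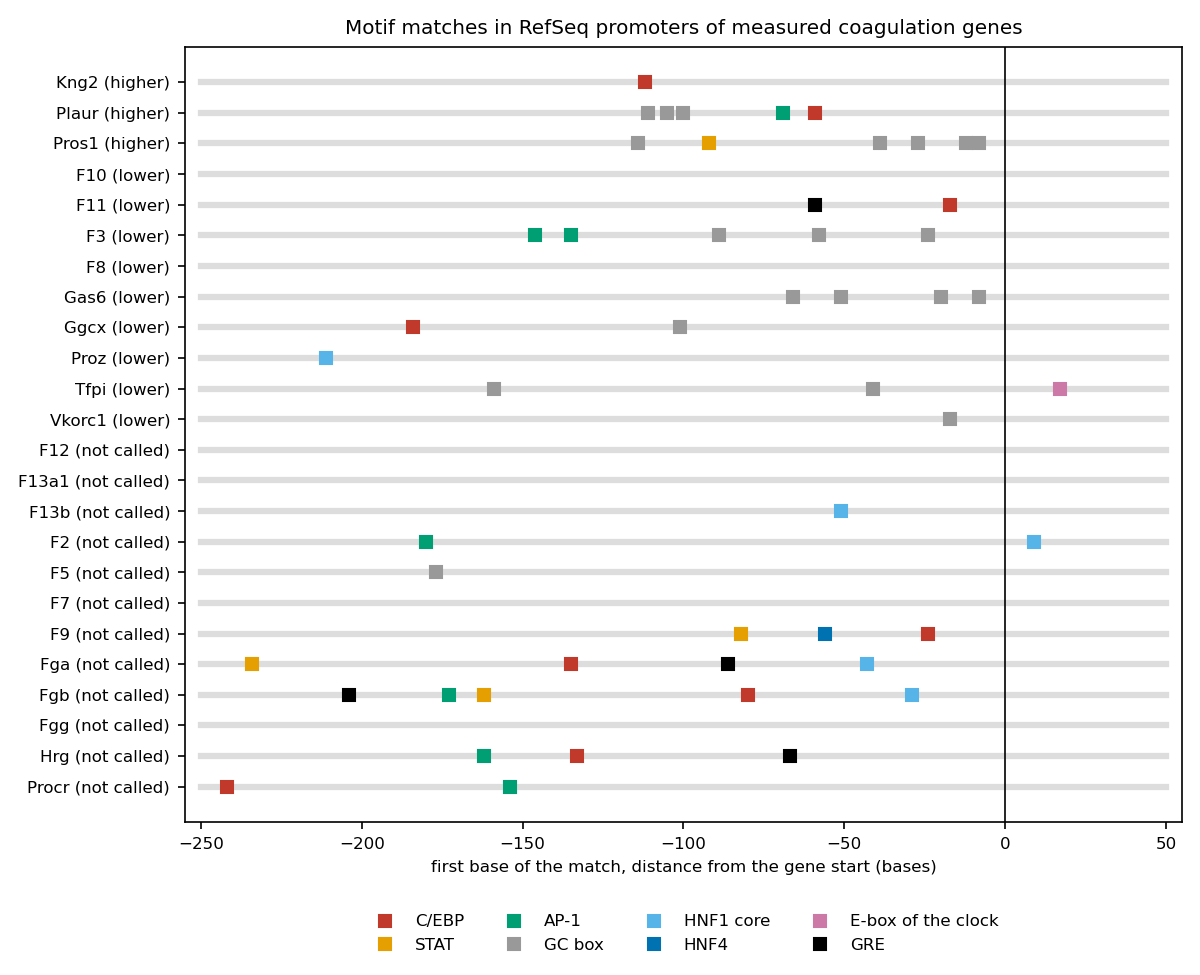
Position of each motif match, as distance in bases of its first base from the gene start, in the promoters of 24 measured coagulation genes ordered by call. Matches in both entries of Tfpi are on 1 row, and neither entry of F13a1 held a match. C/EBP matches (red) occur in 2 of 3 genes that rose, 2 of 9 that fell and 5 that did not pass. GRE (black) stands for the glucocorticoid receptor letters.

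Of 17 clotting factors tested, 2 rose, 4 fell and 11 did not pass, with a median log2 change of 0.01. The share called was 35.3%, against 25.9% of all tested probe sets. Both rises (Kng2 and Vwf) were lost when knock-in mouse 1 or 3, or any 1 wild-type mouse, was omitted, and with arrays centred on their medians (adjusted p = 0.0779 and 0.0571) or no filter (adjusted p = 0.0539 and 0.0602). With quantile normalization Vwf did not pass either (adjusted p = 0.0511). Only 2 of the falls, those of F3 and F11, remained each time that knock-in mouse 1, wild-type mouse 2 or wild-type mouse 6 was omitted.

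At the start of the cascade, tissue factor fell and factor VII did not pass. F3, which encodes tissue factor, the membrane protein that triggers clotting, read 55, 82 and 67 in knock-in mice and 261, 153 and 137 in wild-type mice. All knock-in values lay below all wild-type values, and wild-type mouse 2 stood above the other wild-type mice. The log2 change was -1.21 ± 0.23 (SE, n = 3 per genotype; 2.31-fold lower, with adjusted p = 0.00823 by limma), and it was -0.95 without wild-type mouse 2. The knock-in values lay below the median of every array, and the change was -0.88 with 64 added in place of 16 and -1.38 with 1 added. F7, the protease that tissue factor activates, read 1481, 1623 and 1374 in knock-in mice and 1873, 1835 and 1604 in wild-type mice. Knock-in mouse 3 was above wild-type mouse 6, and the change of -0.24 did not pass (95% interval -0.49 to 0.003). In bulk liver, fewer cells of a type and less RNA per cell cannot be told apart.

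In the contact phase, the surface-triggered arm, factor XI fell and factor XII did not pass. F11, the protease that activates factor IX, read 375, 445 and 359 in knock-in mice and 1606, 826 and 1083 in wild-type mice. Even the lowest wild-type value was above every knock-in value, by a log2 change of -1.49 ± 0.23 (2.81-fold lower, with adjusted p = 0.00374 by limma) over all mice. The F11 call held in every alternative tried without a fold limit, with adjusted p = 0.00136 to 0.0210. F12, which starts the contact phase, averaged 4946 ± 116 in knock-in mice and 4820 ± 193 in wild-type mice (SD, n = 3 each). Its log2 change of 0.04 had a 95% interval of -0.12 to 0.20, which leaves out a change as large as that of F11. Kng2, which encodes a kininogen, the carrier of bradykinin, read 9231, 10172 and 8251 in knock-in mice and 7767, 7118 and 7153 in wild-type mice. The genotypes did not overlap and the log2 change was 0.32 ± 0.09 (1.25-fold; limma adjusted p = 0.0350). Its neighbour and close paralog Kng1 changed by 0.07 ± 0.08 and did not pass, and since probes may hybridise with both, which paralog changed is uncertain.

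The complex that activates factor X changed in its cofactor and its substrate. F8, the cofactor of factor IX, read 485, 550 and 501 in knock-in mice and 817, 662 and 783 in wild-type mice, with no overlap and a log2 change of -0.54 ± 0.11 (limma adjusted p = 0.0126). The F8 call did not hold when knock-in mouse 1, wild-type mouse 2 or wild-type mouse 6 was omitted, with adjusted p = 0.0525 to 0.0551. Vwf, whose protein carries factor VIII in plasma and binds platelets, read 265, 351 and 242 in knock-in mice and 181, 204 and 204 in wild-type mice. It thus moved in the other direction from F8, by 0.49 ± 0.14 (limma adjusted p = 0.0401). F9, the protease of this complex, averaged 2725 ± 386 in knock-in mice and 2476 ± 118 in wild-type mice and did not pass (95% interval of the log2 change -0.14 to 0.40). F10, the protease that makes thrombin, read 2526, 3063 and 1879 in knock-in mice and 3631, 3484 and 3666 in wild-type mice. The knock-in mice were spread widely below a tight wild-type group, and the log2 change of -0.55 ± 0.17 passed (limma adjusted p = 0.0445). The F10 call was lost without any 1 mouse other than knock-in mouse 3 (adjusted p = 0.0616 to 0.115), and with no filter (adjusted p = 0.0697).

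Prothrombin and its cofactor did not pass. F2, which encodes prothrombin, read 8736, 9532 and 8515 in knock-in mice and 10278, 9719 and 10528 in wild-type mice. All knock-in values were below all wild-type values, but the log2 change of -0.19 ± 0.07 missed the threshold (limma adjusted p = 0.0860), and it passed without knock-in mouse 3 (adjusted p = 0.0365), with quantile normalization (adjusted p = 0.0290) and with array weights (adjusted p = 0.0268). F5, the cofactor of factor X, changed by 0.01 with a 95% interval of -0.21 to 0.22.

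None of the 5 genes of fibrin formation passed. Fgb read 15278, 14715 and 12893 in knock-in mice and 13605, 13080 and 13444 in wild-type mice. Fgg read 14883, 14496 and 12184 in knock-in mice and 13849, 12631 and 13154 in wild-type mice. In both of these fibrinogen chains knock-in mice 1 and 3 were above every wild-type mouse and knock-in mouse 5 was below every wild-type mouse. Fga read 3011, 4864 and 1659 in knock-in mice and 2862, 2924 and 3302 in wild-type mice. Knock-in mice 3 and 5 thus lay on opposite sides of the wild-type group, and the log2 change of -0.06 ± 0.34 was -0.43 without knock-in mouse 3 and 0.34 without knock-in mouse 5. A second Fga probe set had the same order within each genotype, with 646, 1920 and 349 in knock-in mice and 639, 719 and 939 in wild-type mice. The 3 chains are neighbours on chromosome 3. F13b, the carrier subunit of factor XIII, changed by -0.14 ± 0.15, and F13a1, its enzyme subunit, read 35 to 48 in knock-in mice and 39 to 41 in wild-type mice, close to the filter on low values. Genes of the acute phase response, to which fibrinogen belongs, were measured beside them. Of these 19, 7 rose and 1 fell (42.1% called, against 25.9% of all tested probe sets), with a median log2 change of 0.17. Those named by smallest p all rose, with log2 changes of 2.98 ± 0.24 for Orm3, an orosomucoid gene, 0.79 ± 0.07 for Lbp, which binds bacterial lipopolysaccharide, 1.59 ± 0.17 for Socs3, an inhibitor of cytokine signalling, and 0.64 ± 0.07 for Itih3, which stabilises the matrix molecule hyaluronan. Lcn2 also rose, by 2.01 ± 0.24, and Saa4, a serum amyloid A gene, was the only fall, with a log2 change of -1.79 ± 0.21. The other 11 did not pass, among them Saa1 (0.54 ± 0.36), Saa2 (0.13 ± 0.73), Hp (0.17 ± 0.07) and Crp (-0.86 ± 0.32).

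**Figure D3:**
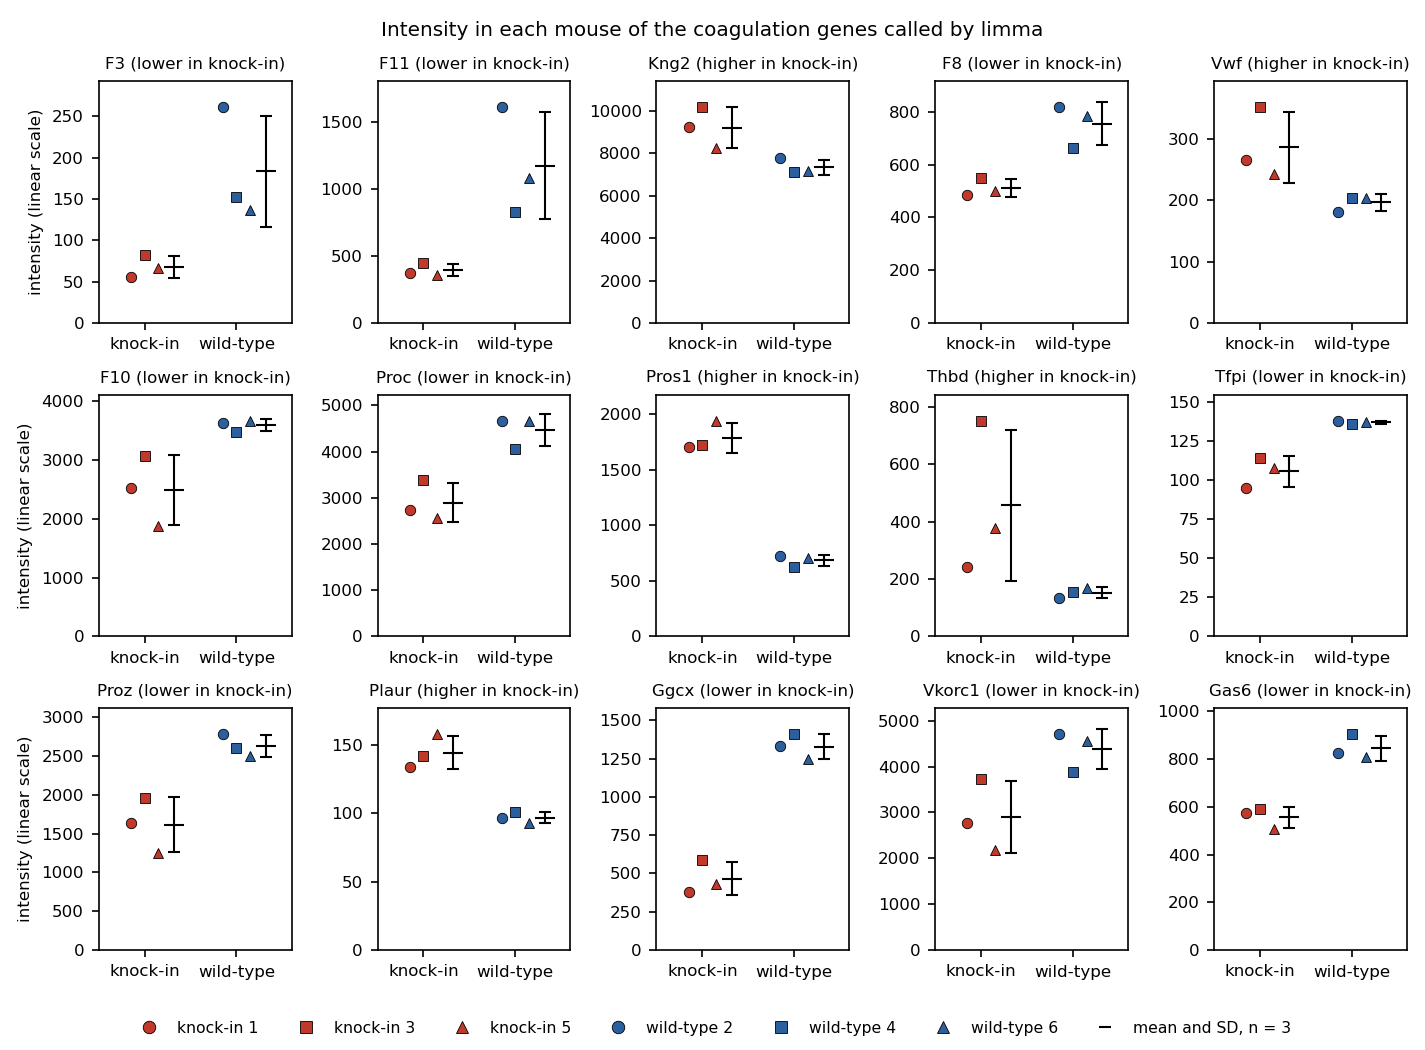
Intensity (linear scale, axis from 0) in each of 3 knock-in and 3 wild-type mice of the 15 genes called by limma, with the mean and SD beside the points. The genotypes do not overlap in any of the 15, and knock-in mouse 3 (red square) is the highest knock-in mouse in all 10 genes that fell.

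Among the natural anticoagulants, protein S and thrombomodulin rose and protein C, protein Z and tissue factor pathway inhibitor fell. Of 6 tested, 2 rose, 3 fell and 1 did not pass, with a median log2 change of -0.19 and a range of -0.72 to 1.37. The share called was 83.3%, against 25.9% of all tested probe sets. Protein S is the cofactor of activated protein C, and these partners lay on opposite sides. Of the 2 rises only that of Pros1 remained when knock-in mouse 5 or any 1 wild-type mouse was omitted, and of the 3 falls only that of Proc remained when knock-in mouse 1 or wild-type mouse 2 was omitted.

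Pros1, which encodes protein S, read 1701, 1719 and 1939 in knock-in mice and 722, 624 and 705 in wild-type mice. The 2 groups were far apart and narrow, at 1786 ± 133 and 684 ± 52.4 (SD, n = 3 each). The log2 change was 1.37 ± 0.10 (2.58-fold; limma adjusted p = 0.000381), and leaving out single mice gave 1.30 to 1.41. Proc, which encodes protein C, the protease that inactivates factors V and VIII, read 2741, 3383 and 2567 in knock-in mice and 4658, 4065 and 4663 in wild-type mice. Every knock-in mouse was below every wild-type mouse, and the log2 change was -0.63 ± 0.12 (1.55-fold lower, with adjusted p = 0.00887 by limma). Thbd, which encodes thrombomodulin, the receptor that turns thrombin into the activator of protein C, read 242, 751 and 379 in knock-in mice and 133, 155 and 169 in wild-type mice. All knock-in values were above the wild-type values, but they ranged widely, with knock-in mouse 3 highest. The log2 change of 1.35 ± 0.35 (limma adjusted p = 0.0272) was 0.93 without knock-in mouse 3, and the call was lost without knock-in mouse 5 or any 1 wild-type mouse (adjusted p = 0.0583 to 0.0852). Procr, the receptor that presents protein C to thrombomodulin, read 57 to 59 in knock-in mice and 59 to 63 in wild-type mice and did not pass.

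Proz, which encodes protein Z, a cofactor for the inhibition of factor X, read 1638, 1964 and 1251 in knock-in mice and 2781, 2601 and 2505 in wild-type mice. The groups did not overlap, and the log2 change was -0.72 ± 0.16 (limma adjusted p = 0.0154). The call did not hold when knock-in mouse 1 (adjusted p = 0.0509) or wild-type mouse 2 (adjusted p = 0.0569) was omitted. F7, F10 and Proz are consecutive genes on chromosome 8, and their changes were -0.24, -0.55 and -0.72. Tfpi, which blocks the complex of tissue factor and factor VII, read 95, 114 and 108 in knock-in mice and 138, 136 and 137 in wild-type mice. The wild-type values were within 2 units of each other, and the log2 change of -0.33 ± 0.09 passed (limma adjusted p = 0.0269) but was lost without any 1 mouse other than knock-in mouse 3 (adjusted p = 0.0577 to 0.0831). Endothelial markers, which bear on Thbd, Vwf, F8, Tfpi and Procr, summed to 8214 to 10510 in knock-in mice and 9964 to 10606 in wild-type mice. Of these 14 markers 2 rose (Lyve1 and Emcn) and 4 fell (Kdr, Stab2, Clec4g and Fcgr2b), with a median log2 change of -0.18. The share called was 42.9%, against 25.9% of all tested probe sets. Lyve1 added to the knock-in sums, at 1143 ± 359 in knock-in mice and 426 ± 178 in wild-type mice (SD, n = 3 each). The pan-endothelial markers Pecam1 (0.18 ± 0.12) and Cdh5 (0.35 ± 0.15) did not pass. The part of endothelial cells in these results was not tested.

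In fibrinolysis only 3 of 6 genes could be tested, and 1 of them rose, which is too few to set against the other classes. Plg, which encodes plasminogen, the precursor of plasmin, read 11156, 11753 and 11103 in knock-in mice and 11292, 11131 and 11184 in wild-type mice. The groups overlapped and the log2 change of 0.02 had a 95% interval of -0.11 to 0.15, the narrowest among the 29 genes. Plaur, which encodes the urokinase receptor, read 134, 142 and 158 in knock-in mice and 97, 101 and 93 in wild-type mice. Its values did not overlap, and its log2 change of 0.51 ± 0.09 (1.42-fold; limma adjusted p = 0.00572) passed in every alternative tried without a fold limit. Hrg, which encodes a plasma glycoprotein that binds plasminogen and heparin, averaged 8534 ± 1006 in knock-in mice and 7224 ± 446 in wild-type mice (SD, n = 3 each). Its log2 change of 0.23 ± 0.10 did not pass (limma adjusted p = 0.133), and it passed without knock-in mouse 5 (adjusted p = 0.0360) and with array weights (adjusted p = 0.0436). Plat, the tissue plasminogen activator, read 38 to 44 in knock-in mice and 33 to 35 in wild-type mice, and Plau, the urokinase gene, read 35 to 38 in knock-in mice and 36 to 42 in wild-type mice. Without the filter neither passed (adjusted p = 0.0838 for Plat and 0.479 for Plau).

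The class of the 2 vitamin K cycle enzymes and Gas6 had 3 falls of 3, against 10.9% of all tested probe sets. Gas6 is also counted among the vitamin K-dependent proteins below, which did not all fall. Ggcx, the carboxylase that modifies the vitamin K-dependent proteins, read 378, 590 and 432 in knock-in mice and 1331, 1409 and 1248 in wild-type mice. The highest knock-in value was less than the lowest wild-type value, and the log2 change of -1.50 ± 0.16 (2.83-fold lower, with adjusted p = 0.00117 by limma) was the largest fall among the 29 genes. Leaving out single mice gave -1.68 to -1.37. Vkorc1, which regenerates reduced vitamin K and is the target of warfarin, read 2780, 3733 and 2174 in knock-in mice and 4705, 3887 and 4552 in wild-type mice. Knock-in mouse 3 came close to wild-type mouse 4, and the log2 change of -0.62 ± 0.19 (limma adjusted p = 0.0458) was lost without any 1 mouse other than knock-in mouse 3 (adjusted p = 0.0673 to 0.133), with no filter (adjusted p = 0.0733) and with a robust prior (adjusted p = 0.0511). Gas6, a vitamin K-dependent ligand of the receptors Axl, Tyro3 and Mertk, read 573, 589 and 506 in knock-in mice and 825, 904 and 807 in wild-type mice. The groups did not overlap, and the log2 change was -0.59 ± 0.10 (1.51-fold lower, with adjusted p = 0.00606 by limma).

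The 8 vitamin K-dependent proteins did not move as 1 group. Pros1 rose, F10, Proc, Proz and Gas6 fell, and F2, F7 and F9 did not pass, with a median log2 change of -0.40. Of the 8, 62.5% were called, against 25.9% of all tested probe sets. This grouping was made after the values were seen and was not tested. The paralog of Vkorc1, Vkorc1l1, averaged 980 ± 119 in knock-in mice and 1128 ± 34.1 in wild-type mice and did not pass.

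The knock-in mice often stood in the same order. Knock-in mouse 3 was the highest of the 3 knock-in mice in 23 of the 29 tested genes and the lowest in 0, and knock-in mouse 5 was the lowest in 19. Over all tested probe sets, knock-in mouse 3 was highest in 39.3% and lowest in 31.1%, and knock-in mouse 5 was lowest in 30.3%. In the 10 genes that fell, the median difference from the wild-type mean was -0.66 in knock-in mouse 1, -0.43 in knock-in mouse 3 and -0.97 in knock-in mouse 5, on the log2 scale. Knock-in mouse 3 was nearest to wild-type in all 10 of them, against 73.2% of all probe sets called lower. In the 5 genes that rose it was not the nearest in any, against 59.3% of all probe sets called higher. The SD was larger in knock-in than in wild-type mice in 22 of the 29 genes (75.9%), against 57.6% of all tested probe sets. These shares are descriptions and were not tested.

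**Figure D4:**
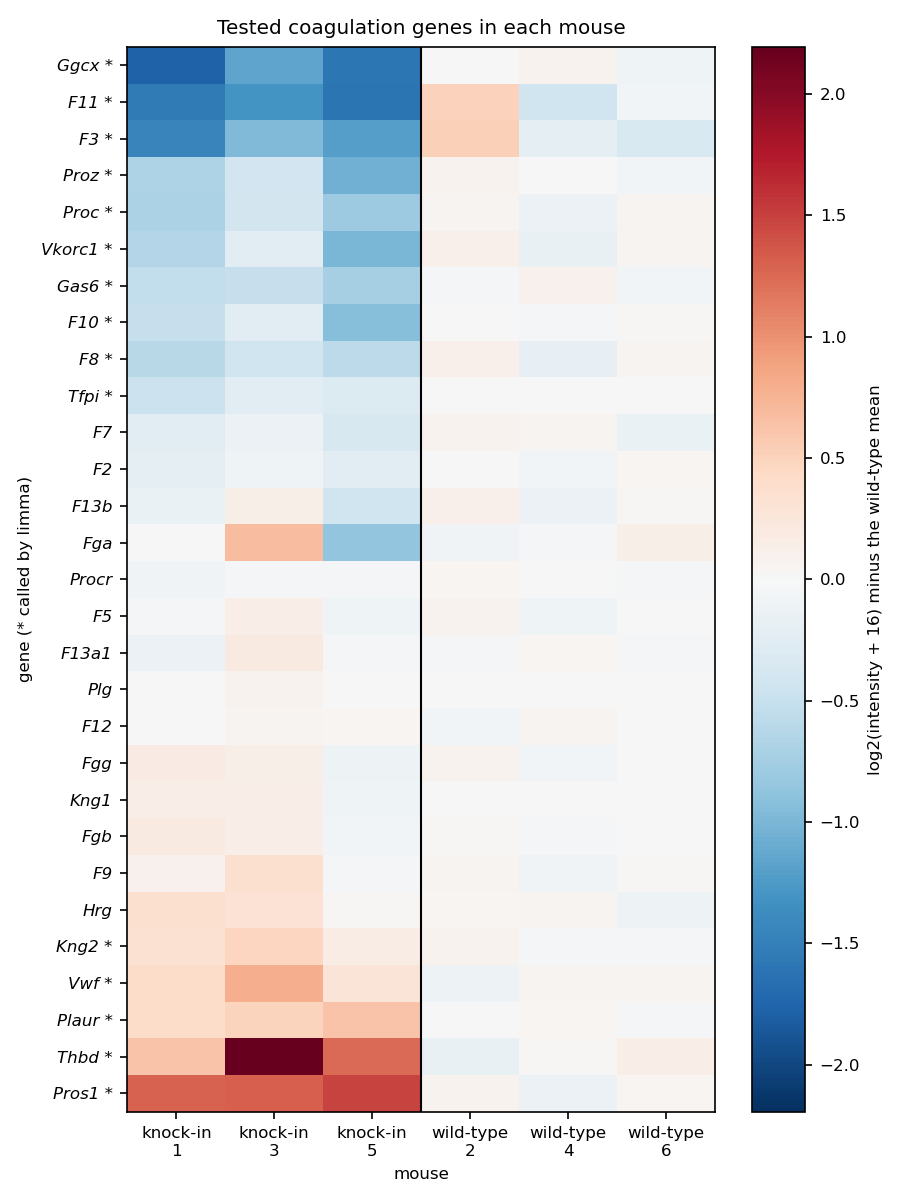
Difference of each of 6 mice from the wild-type mean on the scale of log2(intensity + 16), for the 29 tested genes ordered by their mean in knock-in mice, with an asterisk for genes called by limma. The column of knock-in mouse 3 is paler than its neighbours in the genes that fell and darkest at Thbd, where it lies 2.19 above the wild-type mean.

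Genes that work with these proteins were read from lists of their own. The counts in these lists stand beside 25.9% of all tested probe sets called, 14.9% higher and 10.9% lower. Among 6 measured serpins that inhibit clotting or fibrinolysis, 5 were tested, and 2 of these fell and 0 rose, with a median log2 change of -0.52. Serpind1 (heparin cofactor II) changed by -0.52 ± 0.13 and Serping1 (C1 inhibitor) by -0.60 ± 0.09. Serpinc1, which encodes antithrombin, averaged 8647 ± 1098 in knock-in mice and 10417 ± 34.9 in wild-type mice and did not pass (limma adjusted p = 0.0707). Serpina10, the inhibitor that protein Z serves, changed by -0.69 ± 0.24 and Serpinf2, the plasmin inhibitor, by -0.09 ± 0.07, and neither passed. Serpina5 lay below the filter.

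Of 8 genes in the list of cell surface and vitamin K partners, 3 fell and 0 rose. S100a10, which binds plasminogen and its activator at the cell surface together with annexin A2, averaged 557 ± 196 in knock-in mice and 2393 ± 304 in wild-type mice, a log2 change of -2.12 ± 0.24 (limma adjusted p = 0.00128). Plgrkt, another plasminogen receptor, changed by -0.76 ± 0.09 and Tfpi2, a protease inhibitor related to Tfpi, by -1.57 ± 0.22. Anxa2 itself changed by -0.39 ± 0.19 and did not pass.

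Of 8 genes of secretion and clearance, 4 fell and 1 rose. Lrp1, a receptor that removes factor VIII and complexes of plasminogen activators, changed by -0.88 ± 0.11, the scavenger receptor Stab2 by -0.37 ± 0.09 and Asgr1, a subunit of the asialoglycoprotein receptor, by -0.58 ± 0.15. Furin, which cleaves the propeptides of several clotting proteins, rose by 0.71 ± 0.14. Of 6 genes of thrombin and Gas6 receptors, the thrombin receptor F2r rose by 0.61 ± 0.13 and F2rl2 fell, by a log2 change of -0.28 ± 0.07. F2rl2 was dim, at 42 to 49 in knock-in mice and 55 to 61 in wild-type mice, with no detection call available. Axl, Tyro3 and Mertk did not pass (log2 changes of -0.39, 0.10 and -0.22).

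Transcription factors that act on clotting genes in liver moved in both directions, with 4 of 13 higher and 3 lower. Hnf4a averaged 9039 ± 385 in knock-in mice and 5067 ± 487 in wild-type mice, a log2 change of 0.84 ± 0.09 (limma adjusted p = 0.00108). Cebpa averaged 1043 ± 63.8 in knock-in mice and 2150 ± 319 in wild-type mice, a log2 change of -1.02 ± 0.13 (limma adjusted p = 0.00185). Cebpd, a relative induced in inflammation, rose by 1.93 ± 0.14 and the coactivator Ppargc1a by 2.30 ± 0.18.

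Markers of other cells that make these proteins were read on the same arrays. Their counts stand beside 14.9% of all tested probe sets higher and 10.9% lower. Platelet and megakaryocyte markers, which bear on Vwf and F13a1, summed to 1739 to 1805 in knock-in mice and 1181 to 1298 in wild-type mice, and 3 of 8 rose and 1 fell. The increase in the sum came mainly from Itgb3, at 633 ± 34.5 in knock-in mice and 208 ± 39.0 in wild-type mice, a gene of endothelium too, while Pf4 read 78 ± 7.81 in knock-in mice and 59.3 ± 3.06 in wild-type mice and Ppbp fell. Markers of Kupffer cells, macrophages and monocytes summed to 3929 to 6704 in knock-in mice and 5603 to 9541 in wild-type mice, with 0 of 12 higher and Adgre1 lower. Stellate cell and fibroblast markers summed to 11419 to 13192 in knock-in mice and 10896 to 11780 in wild-type mice, with 2 of 12 higher and 3 lower. Much of this sum was Dcn, which rose, at 6482 ± 436 in knock-in mice and 4607 ± 344 in wild-type mice. Pdgfra also rose, by 1.23 ± 0.11. Lrat, Colec11 and Ngfr fell, with log2 changes of -1.16 ± 0.21, -0.90 ± 0.22 and -0.42 ± 0.09. Neutrophil markers, which bear on Plaur, summed to 641 to 682 in knock-in mice and 483 to 522 in wild-type mice. This sum holds all 10 measured markers, of which only 6 passed the filter on low values, and 3 of these were higher and 0 lower. Retnlg, 1 of the 3, read 76 to 96 in knock-in mice and 34 to 37 in wild-type mice. It thus passed the filter only through its knock-in values. The part of any of these cell types in the results was not tested.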

How the data were processed

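The authors deposited 1 table of linear probe set intensities in whole numbers, but the sources used here give neither the summarisation nor the background correction or normalization. Liver RNA was purified with RNeasy kits and biotin-labelled, per the labels' protocols. Columns were matched to the 6 mice by sample identifier, and all 32 probe sets of the members matched RefSeq by gene identifier, with 0 differing symbols. No detection calls were used, so a low intensity is not shown to be above background.

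Values entered the fit as log2(intensity + 16), and every fold change is of this quantity, which makes changes of dim genes look smaller. Only probe sets at or above the 25th percentile of the mean of these values were fitted, as knock-in minus wild-type with limma 3.58.1 in R 4.3.3 (lmFit, eBayes with trend), and Benjamini-Hochberg adjustment ran over all 26634 tested probe sets. A gene rose or fell when its brightest probe set with 1 symbol had an adjusted p below 0.05. A p-value of a gene comes from this fit unless another setting or an omitted mouse is named with it.

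Values in every mouse are given for called members and for F2, F3, F7, Fga, Fgb, Fgg, Proc, Plg and Vwf. Of other lists up to 4 genes are named by smallest p, beside the measured serpins. Some genes (Lcn2, Saa1, Saa2, Saa4, Hp, Crp, Vkorc1l1, Anxa2, Axl, Tyro3, Mertk, Pecam1, Cdh5, Alb and the called markers) were named after their values were seen. The members and lists were chosen with earlier results of these data known. The glucocorticoid receptor core was searched after its longer form had given no match. Promoter letters were searched with Python 3.11.15, and figures drawn with matplotlib 3.10.9. In simulated data with 26634 probe sets in this layout, 26% of log2 changes of 0.5, 88% of 1, 92% of 2 and 98% of 4 were recovered, and 3.80% of calls were false. Far fewer probe sets were changed in the simulation than the 25.9% called in the mice. Its rates depend on that share and do not carry over to these data. Arrays carry no read depth, and 3 mice per genotype limit the precision.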

Additional observations from a re-analysis of the deposited data

How the results depend on the processing

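No paired analysis was possible because the genotypes share no replicate numbers. All 15 called coagulation genes kept their direction in the 18 alternatives, and the calls of F3, F11, Proc, Pros1, Plaur, Ggcx and Gas6 held in each of the 17 without a fold limit. Leaving out single mice gave 2 to 5 coagulation genes higher and 5 to 11 lower, clotting factors 0 to 2 and 2 to 5, anticoagulants 1 to 2 and 1 to 3, fibrinolysis 1 to 2 higher, and 2422 to 4271 probe sets higher and 1814 to 3454 lower. With quantile normalization 1 clotting factor rose. With arrays centred on their medians, and likewise with no filter, 3 coagulation genes and 0 clotting factors rose. Array weights gave 2 genes of fibrinolysis higher. Requiring at least 1.5-fold left 2 coagulation genes higher, 0 clotting factors higher and 2 lower, 0 fibrinolysis genes higher, and 2077 probe sets higher and 1774 lower. Fitting only probe sets with exactly 1 symbol gave 2637 of 17643 higher, and averaging the probe sets of a gene gave 2318 of 16157 genes higher. The cause of these differences was not tested. The median log2 change of all probe sets was -0.02 with centring and 0.03 without it. Fga lay at -0.43 without knock-in mouse 3 and 0.34 without knock-in mouse 5. With a filter at the 50th percentile F13a1 and Procr were not tested. Dim genes (Procr, F13a1, Plat and Plau) had intensities of 63 or less in every mouse, and F3 55 to 82 in knock-in mice, where no detection call was available.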
